A study of Homo sapiens with 36 samples.

Results

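Expression of 10 genes of enterocyte lipid export was followed in differentiated Caco-2 and in HT-29 cells exposed to chemical activators of the hypoxia response. The genes were taken by symbol from the mRNA count table, which held 60591 genes, and all 10 symbols were found: APOB, MTTP, APOA1, APOA2, APOA4, APOC3, APOE, FABP1, FABP2 and MOGAT2. Each of 2 human colorectal cancer cell lines was left as control, treated with 300 µM cobalt(II) chloride (CoCl2) or treated with 5 µM of an oxyquinoline derivative (OD, named Oxy in the labels) for 24 h, with 3 replicates per group and 18 mRNA libraries in all. Both agents are used to activate hypoxia-inducible factor (HIF) signalling in normal oxygen. Control medium held 0.5 µl DMSO per ml, the solvent of OD, whereas the cobalt stock was made in water. Caco-2 cells had been kept under differentiating conditions for 21 days, and no such step was given for HT-29, so cell line and state of differentiation cannot be told apart. The study's methods call the Caco-2 replicates biological. For HT-29 nothing said that replicates were separate cultures, and p-values then measure only the spread between these samples.

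Enterocytes take up fatty acids and monoacylglycerol from the gut lumen, rebuild triacylglycerol from them and export it in chylomicrons. Apolipoprotein B (APOB) is the structural protein of these particles, and the microsomal triglyceride transfer protein (MTTP) loads it with lipid in the endoplasmic reticulum. APOA1, APOA2, APOA4, APOC3 and APOE are exchangeable apolipoproteins, which move between particles in the circulation. FABP1 and FABP2 are cytosolic fatty acid binding proteins, and MOGAT2 makes diacylglycerol from monoacylglycerol. The intestine shares most of these genes with the liver, and Caco-2 cells are known to express both enterocyte and hepatocyte genes.

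Total counts per library ran from 12925719 to 22332639, and levels are given below in CPM, a count divided by the library size after TMM scaling (a trimmed mean of log ratios between libraries). Cell identity was checked on marker genes. Of 7 absorptive enterocyte markers, 6 had a mean of at least 10 counts in control Caco-2 and 4 in control HT-29, with summed levels of 1096 to 1213 CPM and of 210 to 216 CPM. Hepatocyte markers summed to 6012 to 6629 CPM in control Caco-2 (5 of 6 genes at 10 counts or more) and to 323 to 350 CPM in control HT-29 (2 of 6), where the albumin gene ALB had 1 count in each library and the fibrinogen gene FGB had 0. In Caco-2 the hepatocyte sum ran from 6343 to 6410 CPM with CoCl2 and from 4499 to 5107 CPM with OD, and that of the enterocyte markers from 921 to 1025 CPM and from 1357 to 1442 CPM. Their part in the results below was not tested. In bulk RNA, fewer cells of a type and less RNA per cell cannot be told apart. Of 7 hypoxia readout genes, 6 of 6 tested were upregulated by CoCl2 and 5 of 6 by OD in Caco-2, against 7 of 7 and 3 of 7 in HT-29.

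APOB is on chromosome 2 (21001429 to 21044073, minus strand, GRCh38, GENCODE 44) and FABP1 on the same chromosome (88122982 to 88128062, minus strand). MTTP (99564081 to 99623997, plus strand) and FABP2 (119317250 to 119322138, minus strand) are on chromosome 4, APOA2 on chromosome 1 (161222292 to 161223631, minus strand), APOE on chromosome 19 (44905791 to 44909393, plus strand) and MOGAT2 on chromosome 11 (75717838 to 75732958, plus strand). APOA4 (116820700 to 116823304, minus strand), APOC3 (116829706 to 116833072, plus strand) and APOA1 (116835751 to 116837622, minus strand) lie next to each other on chromosome 11, in a cluster of 48256 bp that also holds APOA5. A noncoding antisense gene overlaps APOA1 (APOA1-AS), APOA4 and MTTP, and a provisional gene model overlaps APOB and APOE, the first on the opposite strand. How strand was used in counting was not stated, so reads of these overlapping pairs cannot be told apart.

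RefSeq promoter entries (GRCh38.p14) were held for 6 of the 10 genes, APOA2, APOA4, APOE, FABP1, FABP2 and MTTP. The 250 bases before the transcript start are shown for 4 of them, in lower case from 5′ to 3′ on the strand of the gene. The transcripts of these 4 moved the same way with both agents in Caco-2 or fell with CoCl2 in both lines. Each of these changes had a false discovery rate (FDR, edgeR) under 0.05. Capitals mark every match, on either strand, to ACGTG or GCGTG (the cores of HIF response elements), CAAAGTCCA or TGACCTTT (nuclear receptor motifs of the HNF4 type), TATAAA or the E-box CACGTG, which contains ACGTG. The lines give APOA4 (chr11:116823305-116823554, minus strand), both MTTP starts (chr4:99563880-99564129 and chr4:99574574-99574823, plus strand), FABP1 (chr2:88128063-88128312, minus strand) and APOA2 (chr1:161223629-161223878, minus strand).
APOA4: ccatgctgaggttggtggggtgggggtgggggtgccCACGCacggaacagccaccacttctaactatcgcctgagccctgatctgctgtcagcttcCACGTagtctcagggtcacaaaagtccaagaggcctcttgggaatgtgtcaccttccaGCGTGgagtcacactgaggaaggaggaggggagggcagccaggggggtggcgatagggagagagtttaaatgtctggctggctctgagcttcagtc
MTTP, upstream start: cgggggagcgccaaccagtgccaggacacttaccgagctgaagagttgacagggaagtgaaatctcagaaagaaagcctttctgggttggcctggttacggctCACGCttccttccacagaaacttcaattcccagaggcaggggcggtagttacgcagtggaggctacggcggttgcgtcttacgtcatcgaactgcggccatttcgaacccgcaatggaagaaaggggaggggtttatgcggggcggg
MTTP, downstream start: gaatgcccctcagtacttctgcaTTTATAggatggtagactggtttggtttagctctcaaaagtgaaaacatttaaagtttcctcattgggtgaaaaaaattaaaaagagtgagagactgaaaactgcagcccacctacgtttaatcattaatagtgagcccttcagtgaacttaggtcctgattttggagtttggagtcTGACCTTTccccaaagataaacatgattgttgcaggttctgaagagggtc
FABP1: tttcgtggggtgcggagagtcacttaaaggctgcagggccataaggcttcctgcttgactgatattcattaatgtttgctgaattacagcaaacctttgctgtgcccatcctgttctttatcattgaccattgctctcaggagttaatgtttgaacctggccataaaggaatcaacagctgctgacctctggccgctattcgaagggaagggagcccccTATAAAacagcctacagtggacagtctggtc
APOA2: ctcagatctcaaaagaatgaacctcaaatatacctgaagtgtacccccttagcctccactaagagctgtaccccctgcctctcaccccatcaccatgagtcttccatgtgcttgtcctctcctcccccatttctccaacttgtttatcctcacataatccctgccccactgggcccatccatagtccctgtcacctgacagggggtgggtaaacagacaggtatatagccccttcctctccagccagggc
APOA4 held 3 HIF core matches, ACGTG at position -154 and GCGTG at positions -214 and -96 (counted back from the first transcribed base, to the first base of the match). The upstream MTTP start held GCGTG at -147, and the downstream start held TGACCTTT at -50 and TATAAA at -227. FABP1 held TATAAA at -31, and the APOA2, APOE and FABP2 windows held none of the 6 motifs. Over all 35116 promoter entries of this length, 18.5% held ACGTG, 32.2% GCGTG, 43.2% one or other of these 2 cores, 0.325% CAAAGTCCA, 1.05% TGACCTTT, 10.7% TATAAA and 6.34% CACGTG. A match describes the letters of the window and not a bound site.

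The levels of the genes were first ordered in control Caco-2 per kilobase, in RPKM, the same quantity divided by gene length, from the deposited log2 values. APOA1 was highest at 1823 ± 117 RPKM (SD, n = 3), followed by APOA2 at 522 ± 24.2 RPKM, APOC3 at 484 ± 43.9 RPKM and APOE at 462 ± 20.4 RPKM. APOC3 did not differ from either of its neighbours in this order beyond their SDs. APOB reached 270 ± 1.43 RPKM and FABP1 93.8 ± 2.98 RPKM. The order between genes rests on the gene lengths behind the deposited values, which were not checked. The values imply 2423 bases for FABP1, 2160 for APOE and 948 for APOA2, and other lengths would give other ranks. APOA4 (9.07 ± 2.10 RPKM) and MTTP (6.87 ± 0.739 RPKM) overlapped across libraries, MOGAT2 was last at 1.21 ± 0.342 RPKM, and FABP2 was not listed. With both agents APOC3 stood above APOA2. With CoCl2 APOC3 was at 989 ± 72.0 RPKM and APOA2 at 404 ± 31.1 RPKM, and with OD at 600 ± 16.7 and 340 ± 40.4 RPKM. Together the 10 genes took 0.944% to 0.987% of all counts in control Caco-2 libraries, 0.624% to 0.746% with CoCl2 and 0.676% to 0.730% with OD.

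**Figure D1:**
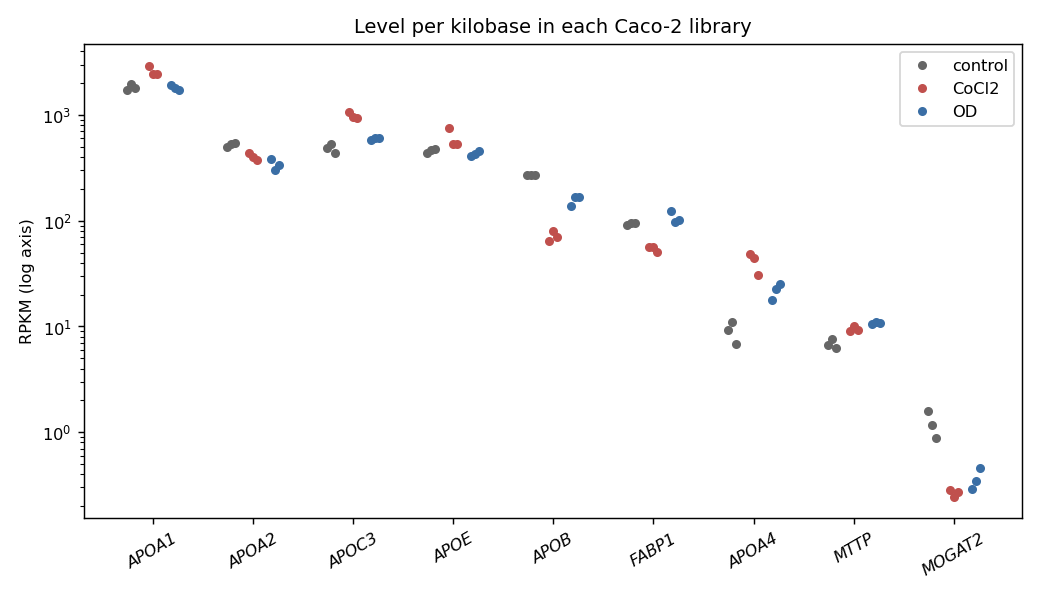
RPKM of 9 of the 10 genes in each Caco-2 library (points, log axis), in the order of the control level, with control in grey, CoCl2 in red and OD in blue. APOA1 is the highest gene in every group, and APOB is at 270 RPKM in control, 71.2 RPKM with CoCl2 and 158 RPKM with OD.

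The first question was how the genes responded to each agent in differentiated Caco-2. With CoCl2 the lipid export genes split. APOB and MOGAT2 were downregulated 3.70-fold and 4.43-fold, whereas APOA4 rose 4.64-fold and APOC3 2.10-fold. A gene was called changed at an FDR (edgeR quasi-likelihood test, Benjamini-Hochberg over all genes tested) under 0.05 and a log2 fold change beyond 1 in size. By this rule CoCl2 changed 5 of the 10 genes, 2 higher and 3 lower, where 23.4% of the 16034 genes tested were called (9.13% higher, 14.2% lower). OD changed 2 of the 10, 1 higher and 1 lower, where 11.7% of all genes were called (4.43% higher, 7.27% lower). The median log2 fold change of the 10 genes was 0.05 with CoCl2 and -0.01 with OD, beside -0.03 and -0.02 over all genes. In size alone their median was 0.91 and 0.53, beside 0.52 and 0.37 over all genes. Scaled by library size alone, CoCl2 raised 1 and lowered 4 of the 10 genes (870 higher and 3546 lower over all genes, against 1464 and 2283 with TMM), and OD raised 1 and lowered 1 (500 and 1644, against 711 and 1165). With CoCl2 each of the 10 genes kept its direction under the 3 scalings tried, but by library size alone the log2 fold changes of APOA1 (0.23), MTTP (0.17, FDR 0.100) and APOE (0.12, FDR 0.319) were smaller, as was that of FABP1 with OD (0.08, FDR 0.377). The 2 agents share their control libraries.

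**Figure D2:**
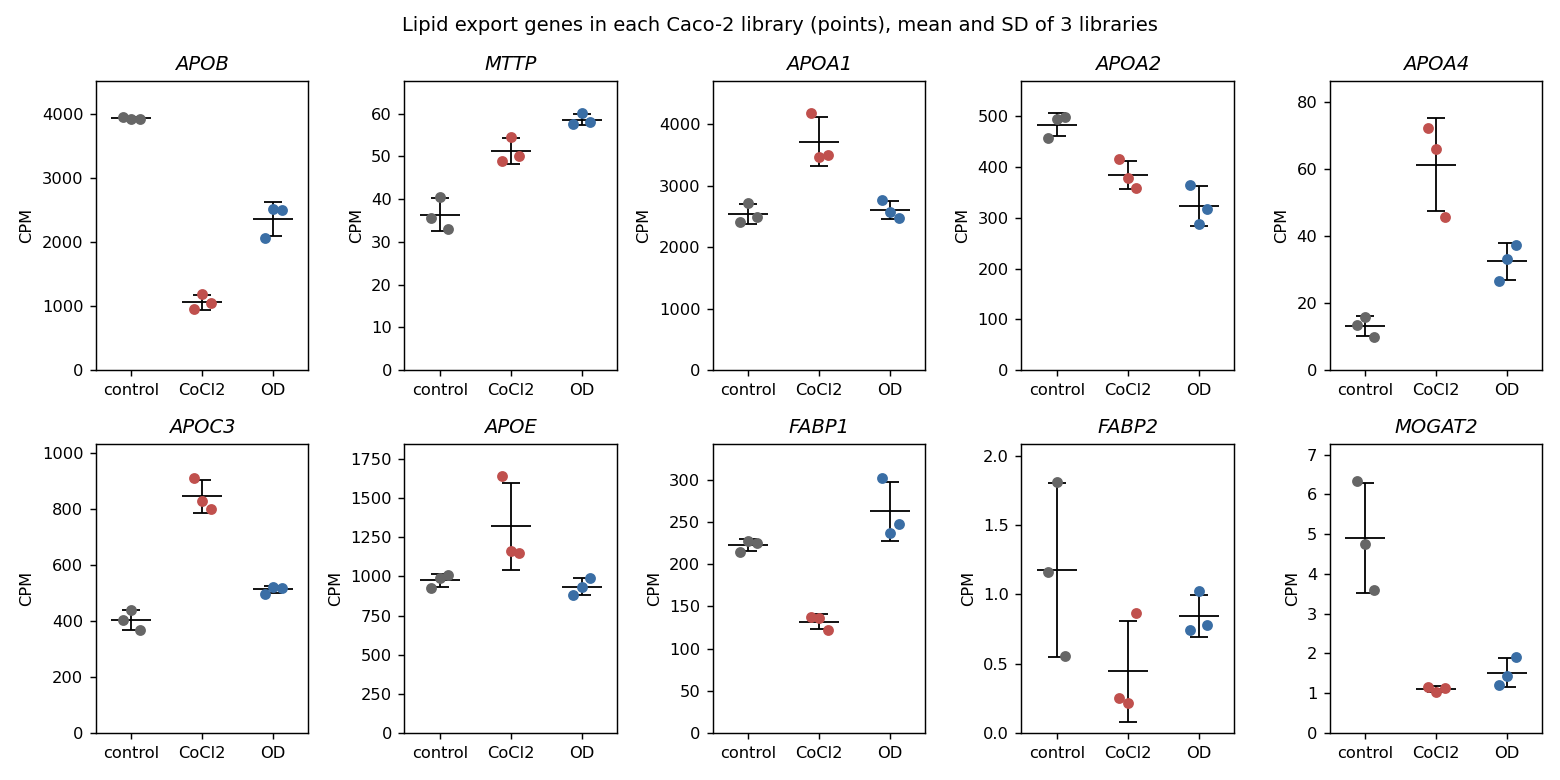
TMM-scaled CPM of the 10 genes in each Caco-2 library (points) under control, CoCl2 and OD, with the mean and SD of 3 libraries. APOB lies between 3914 and 3948 CPM in control and between 958 and 1189 CPM with CoCl2, and APOA4 shows no overlap between any of the 3 groups.

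Among the genes of particle assembly, APOB and MTTP moved in opposite directions. APOB was at 3948, 3914 and 3919 CPM in the 3 control libraries, at 958, 1189 and 1040 CPM with CoCl2 and at 2060, 2519 and 2498 CPM with OD. The 3 groups did not overlap. APOB fell by 1.89 on the log2 scale with CoCl2 (SE 0.0891, edgeR FDR 4.48e-15), 3.70-fold, and its log2 fold change with OD was -0.74 (SE 0.0866, FDR 1.73e-07), which passed the FDR but not the limit on size. MTTP was at 35.6, 40.6 and 33.0 CPM in control, at 48.9, 54.6 and 50.1 CPM with CoCl2 and at 57.6, 60.1 and 58.1 CPM with OD. All treated libraries lay above all controls. The log2 fold change of MTTP was 0.49 with CoCl2 (SE 0.0894, edgeR FDR 3.70e-05) and 0.69 with OD (SE 0.0887, FDR 6.63e-07), under the limit on size in both. Within a library, the ratio of MTTP to APOB counts ran from 0.00841 to 0.0104 in control, from 0.0460 to 0.0510 with CoCl2 and from 0.0232 to 0.0280 with OD.

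APOA4, APOC3 and APOA1, the neighbours on chromosome 11, were each higher with CoCl2, by unequal amounts. APOA4, an apolipoprotein secreted on chylomicrons, had 13.4, 15.9 and 9.90 CPM in control, 72.2, 65.8 and 45.6 CPM with CoCl2 and 26.6, 33.3 and 37.4 CPM with OD. It rose with both agents, by a log2 fold change of 2.22 with CoCl2 (SE 0.160, edgeR FDR 1.44e-11; 4.64-fold) and 1.31 with OD (SE 0.163, FDR 4.10e-07; 2.47-fold). APOC3, an inhibitor of lipoprotein lipase, had 402, 441 and 368 CPM in control, 913, 828 and 800 CPM with CoCl2 and 497, 523 and 519 CPM with OD. Its log2 fold change was 1.07 with CoCl2 (SE 0.0778, edgeR FDR 1.74e-11), just beyond the limit on size, and 0.35 with OD (SE 0.0773, FDR 0.000652). Scaled by library size alone, the APOC3 value with CoCl2 was 0.75 and no longer called. APOA1, the main protein of high density lipoprotein, had 2414, 2727 and 2493 CPM in control and 4188, 3472 and 3502 CPM with CoCl2, with no overlap. With OD it had 2777, 2569 and 2478 CPM and overlapped the controls. Its log2 fold changes were 0.55 with CoCl2 (edgeR FDR 3.32e-06) and 0.04 with OD (95% interval -0.14 to 0.21, FDR 0.743).

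APOA2 and APOE stayed inside the limit on size with both agents. APOA2, the second protein of high density lipoprotein, had 457, 494 and 499 CPM in control, 415, 378 and 360 CPM with CoCl2 and 364, 288 and 317 CPM with OD. It was below all controls in all treated libraries, with a log2 fold change of -0.33 with CoCl2 (edgeR FDR 0.00117) and -0.58 with OD (FDR 2.84e-06). The ratio of APOA1 to APOA2 counts within a library was 5.00 to 5.52 in control, 9.18 to 10.1 with CoCl2 and 7.62 to 8.93 with OD. APOE, a ligand for lipoprotein uptake receptors, had 925, 993 and 1006 CPM in control, 881, 930 and 988 CPM with OD, and 1642, 1165 and 1151 CPM with CoCl2, of which replicate 1 stood apart from the other 2. The log2 fold change of APOE was 0.44 with CoCl2 (SE 0.0998, edgeR FDR 0.000511) and -0.06 with OD (95% interval -0.27 to 0.14, FDR 0.626).

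The genes of fatty acid binding and monoacylglycerol acylation were measured at very different depths, FABP1 from many counts and MOGAT2 and FABP2 from few. FABP1 had 214, 227 and 226 CPM in control, 137, 136 and 122 CPM with CoCl2 and 302, 237 and 248 CPM with OD. It was lower than control in every CoCl2 library and higher in every OD library (log2 fold changes -0.75 with SE 0.0849 and edgeR FDR 3.60e-08, and 0.24 with SE 0.0834 and FDR 0.0188). MOGAT2 had 109, 71 and 52 counts in control (6.35, 4.76 and 3.60 CPM), 14, 14 and 21 counts with CoCl2 (1.17, 1.02 and 1.14 CPM) and 18, 24 and 27 counts with OD (1.21, 1.44 and 1.91 CPM). It fell by 2.15 on the log2 scale with CoCl2 (SE 0.277, edgeR FDR 3.08e-07) and by 1.70 with OD (SE 0.261, FDR 7.77e-06). Fitted by limma-trend to the log2(RPKM + 1) values, MOGAT2 had log2 fold changes of -0.79 (FDR 9.49e-06) and -0.69 (FDR 6.76e-05). Both passed the FDR but not the limit on size, so neither was called. MOGAT2 was at 1.21 RPKM in control, 0.267 with CoCl2 and 0.367 with OD, and adding 1 shrinks a change at this level. FABP2 had only 20, 27 and 8 counts in control, 3, 3 and 16 with CoCl2 and 11, 17 and 11 with OD, and its groups overlapped. Its log2 fold change of -1.27 with CoCl2 (SE 0.501, edgeR FDR 0.0297) was lost with DESeq2 (FDR 0.0876) and without any one of control replicate 1 (FDR 0.0605), control replicate 2 (0.214), CoCl2 replicate 1 (0.107) or CoCl2 replicate 2 (0.131).

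**Figure D3:**
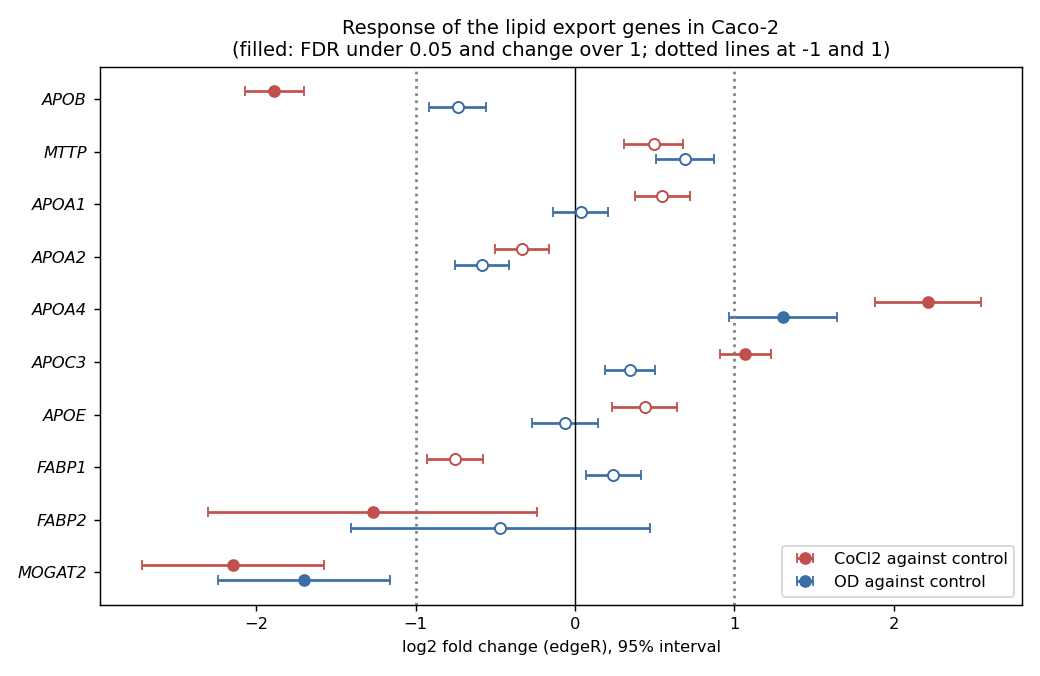
log2 fold change against control in Caco-2 for CoCl2 (red) and OD (blue), with 95% intervals and dotted lines at the limits on size. Filled points are called, and the red points of APOB (-1.89) and APOA4 (2.22) lie farther from 0 than the blue ones (-0.74 and 1.31).

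The agents were then compared directly in Caco-2, at 1 dose each, so that dose and agent cannot be told apart. Of the 10 genes 1, APOB, was called, where 11.7% of all genes were. By the FDR alone 7 passed, as did 7957 of all 16034 genes tested. APOB was lower with CoCl2 than with OD by a log2 difference of -1.15 (SE 0.0874, edgeR FDR 1.33e-10). FABP1, between -1 and 0 at -0.99 (SE 0.0850, FDR 9.40e-10), was just inside the limit on size. Higher with CoCl2 at the FDR alone were APOA4 (log2 difference 0.91), APOC3 (0.72), APOA1 (0.51), APOE (0.50) and APOA2 (0.25, FDR 0.0145). For MTTP the log2 difference was -0.19 (95% interval -0.37 to -0.01, FDR 0.0666), for MOGAT2 -0.45 (interval -1.12 to 0.22) and for FABP2 -0.80 (interval -1.89 to 0.29). These 3 missed the FDR, and their intervals do not show equal levels.

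HT-29 cells expressed FABP1 and little of the others. Of the 10 genes, 3 passed the filter on low counts there, APOA1, APOE and FABP1. The remaining 7 had between 0 and 16 counts in each HT-29 library, and all 10 together took under 0.003% of the counts of any HT-29 library. In the control libraries APOB had 2, 0 and 0 counts, against 67825, 58348 and 56610 in Caco-2. All 10 genes were called lower in control HT-29 than in control Caco-2, where 45.8% of the 17921 genes tested over both lines were called (3873 higher, 4329 lower). The 7 genes that failed the filter in HT-29 entered this fit through their Caco-2 counts, so the filter itself favoured a lower call for them. For FABP2 (log2 difference -1.10, FDR 0.0170) this call was lost with DESeq2 (FDR 0.0648) and without Caco-2 control replicate 2 (-0.68, FDR 0.200). From control counts summed and divided by the summed library totals, the ratio of Caco-2 to HT-29 was 110890 for APOB (95% interval 30697 to 915664, from 2 HT-29 counts), 11.3 for FABP1 (10.7 to 12.1) and 14.8 for MOGAT2 (9.27 to 25.1). For FABP2 it was 2.15 (1.36 to 3.46), with 55 counts in Caco-2 and 31 in HT-29. APOA4 had 0 counts in control HT-29 and was at least 247-fold higher in Caco-2, taking a floor of 3 counts over the group. The lower end of its two-sided 95% interval was 200-fold. These intervals and the floor cover counting error only.

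In HT-29, CoCl2 changed 2 of the 3 genes tested, 1 higher and 1 lower, where 41.3% of the 15812 genes tested were called (17.4% higher, 23.9% lower). OD changed 2 of the 3, both higher, where 17.1% were called (9.5% higher, 7.57% lower). Scaled by library size alone, 1295 genes in all were higher and 6250 lower with CoCl2 (2749 and 3775 with TMM) and 1225 and 1596 with OD (1502 and 1197 with TMM). By this scaling APOE with both agents, FABP1 with CoCl2 and APOA1 with OD (log2 fold change 1.26, edgeR FDR 0.0410) were still called. FABP1 had 303, 354 and 447 counts in control (19.6, 19.4 and 16.8 CPM), 126, 91 and 103 with CoCl2 (9.41, 6.29 and 8.48 CPM) and 251, 162 and 228 with OD (13.0, 9.43 and 12.1 CPM). All treated libraries lay below all controls. It fell by 1.20 on the log2 scale with CoCl2 (SE 0.126, edgeR FDR 1.66e-09), and its log2 fold change with OD was -0.67 (SE 0.111, FDR 6.42e-06).

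APOE and APOA1 were measured in HT-29 from few counts. APOE had 12, 3 and 15 counts in control, 34, 21 and 18 with CoCl2 and 43, 29 and 38 with OD. In CPM its treated libraries lay above all controls, and it rose by a log2 fold change of 1.86 with CoCl2 (SE 0.353, edgeR FDR 2.84e-05) and 1.98 with OD (SE 0.327, FDR 6.49e-06). APOA1 had 9, 1 and 5 counts in control, 16, 4 and 4 with CoCl2 and 17, 10 and 10 with OD, and the CPM of the groups overlapped. Its log2 fold change was 1.40 with OD (SE 0.542, edgeR FDR 0.0251) and 1.24 with CoCl2 (SE 0.597, FDR 0.0571). The APOA1 call with OD was lost with DESeq2 (FDR 0.129), without control replicate 2 (FDR 0.122), without control replicate 3 (0.112) and without OD replicate 1 (0.122). The log2 fold change of APOA1 with CoCl2 ran from 0.27 to 2.11 with 1 library left out. It was called without control replicate 1 (2.11, FDR 0.00601), CoCl2 replicate 2 (1.63, FDR 0.0202) or CoCl2 replicate 3 (1.51, FDR 0.0338), with a replicate block (1.14, FDR 0.0404) and without the low-count filter (1.18, FDR 0.0378). In HT-29 replicate 1 held the most APOA2 counts of each treated group, 10 with CoCl2 and 16 with OD, as it did for APOA1.

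CoCl2 and OD were also compared directly in HT-29. None of the 3 genes tested by edgeR was called between them, where 29.9% of all genes were. By the FDR alone 1 passed, FABP1 (log2 difference -0.53, FDR 0.000963), as did 12286 of all 15812 genes. At an unadjusted p under 0.05 the count was also 1. DESeq2, which tested further genes at low counts, called 2 (4944 genes in all). For APOE the difference was -0.12 (95% interval -0.68 to 0.44) and for APOA1 -0.15 (interval -1.17 to 0.86).

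**Figure D4:**
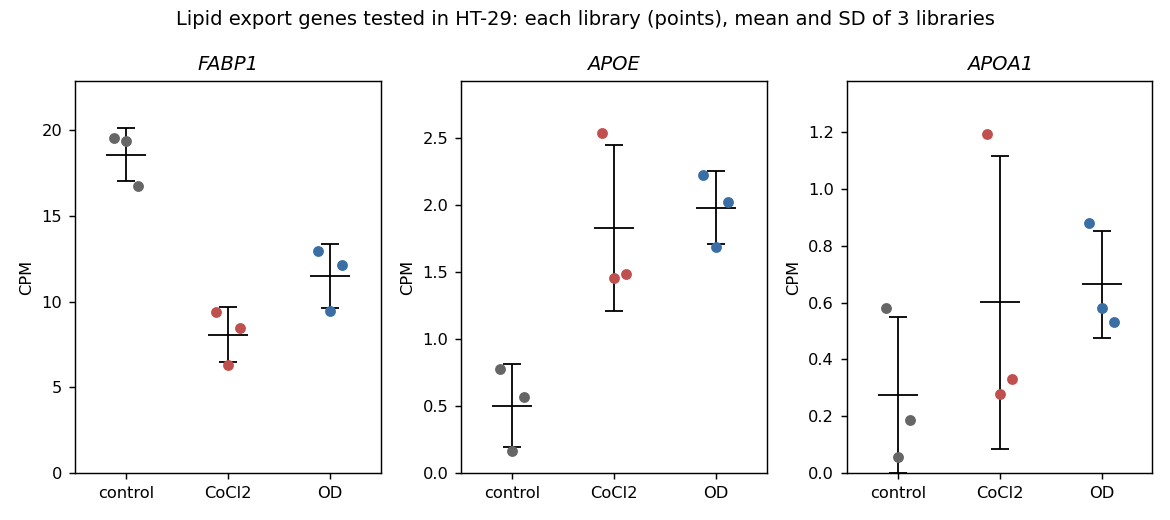
TMM-scaled CPM in each HT-29 library (points) of the 3 genes tested there, under control, CoCl2 and OD, with the mean and SD of 3 libraries. FABP1 is at 18.6 ± 1.55 CPM in control, 8.06 ± 1.60 CPM with CoCl2 and 11.5 ± 1.86 CPM with OD, and APOE and APOA1 stay under 3 CPM.

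Whether the lines responded differently was tested as an interaction over all 18 libraries. The 7 genes with 16 counts or fewer in every HT-29 library entered this fit through Caco-2, and their line differences are not read here. Of the 3 genes tested in both lines, 1 was called for CoCl2, APOE (21.6% of all genes), and 2 for OD, APOE and APOA1 (15.2%). The log2 fold change of FABP1 was lower in HT-29 than in Caco-2 by -0.56 for CoCl2 (SE 0.159, edgeR FDR 0.00386) and by -0.93 for OD (SE 0.144, FDR 2.22e-06), neither beyond the limit on size. With OD, FABP1 was lower than control in all HT-29 libraries and higher in all Caco-2 libraries. That of APOE was higher in HT-29 by 1.32 for CoCl2 (FDR 0.00796) and 2.03 for OD (FDR 3.88e-05), and that of APOA1 by 1.35 for OD (FDR 0.0353) and 0.59 for CoCl2 (95% interval -0.56 to 1.74, FDR 0.416). The APOE call for CoCl2 was lost without HT-29 CoCl2 replicate 1 (1.00, FDR 0.0729) or HT-29 control replicate 2 (0.94, FDR 0.0555). The APOA1 call for OD was lost without HT-29 control replicate 2 (0.93, FDR 0.161), control replicate 3 (FDR 0.151) or OD replicate 1 (1.08, FDR 0.162).

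Around the 10 genes, 8 lists of related genes were counted. Of 14 other apolipoproteins, 10 were tested in Caco-2. There CoCl2 changed 2 higher and 1 lower (9.13% and 14.2% of all genes) and OD 1 higher (4.43%). The neighbour of the chromosome 11 cluster, APOA5, had 26, 29 and 19 counts in control Caco-2, 8, 0 and 0 with CoCl2 and 15, 11 and 11 with OD, and it fell with CoCl2 (edgeR FDR 0.000216), whereas its log2 fold change with OD was -0.96 (FDR 0.0997). APOL2, an intracellular apolipoprotein L, rose with both agents, from 20.9 ± 1.16 CPM in control to 83.9 ± 4.76 CPM with CoCl2 and 44.7 ± 7.99 CPM with OD. APOC1, next to APOE on chromosome 19, was not called in Caco-2 (log2 fold change 0.05 with CoCl2 and -0.25 with OD) and rose in HT-29 with CoCl2 (1.52, edgeR FDR 6.17e-06). This HT-29 value came from few counts, 14 to 25 per library in control and 32 to 49 with CoCl2. In HT-29, 9 of the 14 were tested. With CoCl2 4 rose and 2 fell (17.4% and 23.9% of all genes), and with OD 3 rose and 1 fell (9.5% and 7.57%). APOL1 and APOL2 rose there with both agents, APOL2 from 12.3 ± 0.541 CPM to 277 ± 13.8 CPM with CoCl2 and to 73.6 ± 3.29 CPM with OD.

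Of 18 genes of chylomicron assembly and transport, 14 were tested in Caco-2, and with each agent 1 was called, higher, CAV1 (caveolin-1, named after its values were seen), where 23.4% of all genes were called with CoCl2 and 11.7% with OD. The median log2 fold change of the list was 0.39 with CoCl2 and 0.18 with OD, beside -0.03 and -0.02 over all genes. SAR1B, the GTPase of the vesicles that carry prechylomicrons, was at 103 ± 7.57 CPM in control, 140 ± 9.67 CPM with CoCl2 (log2 fold change 0.45, edgeR FDR 2.67e-05) and 110 ± 6.72 CPM with OD (0.10, FDR 0.325). P4HB, the protein disulfide isomerase that is the partner subunit of MTTP, was at 536 ± 19.7 CPM in control, 967 ± 90.1 CPM with CoCl2 and 803 ± 16.0 CPM with OD (log2 fold changes 0.85 and 0.58, under the limit on size). In HT-29, where 14 were tested, 5 rose and 1 fell with CoCl2 (17.4% and 23.9% of all genes) and 2 rose with OD (9.5%). The risers with CoCl2 were SAR1B (log2 fold change 1.13), SURF4 (1.23), SEC24C (1.27), TMEM41B (2.49) and P4HB (1.57). Of these, TMEM41B (1.45) and P4HB (1.07) also rose with OD. By library size alone the median over all genes with CoCl2 in HT-29 was -0.66, beside -0.03 with TMM. Results by that scaling are not given for the listed genes, and rises near the limit on size could fall inside it.

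APOB mRNA editing shortens the protein to the intestinal form, and APOBEC1 is its cytidine deaminase. APOBEC1 had 2, 5 and 5 counts in control Caco-2, 8, 11 and 2 with CoCl2 and 27, 18 and 28 with OD, and rose with OD (log2 fold change 2.60, SE 0.539, edgeR FDR 0.000304) but was not called with CoCl2 (0.89, FDR 0.242). In HT-29, APOBEC1 had 7, 13 and 12 counts in control, 79, 84 and 72 with CoCl2 and 48, 48 and 69 with OD, and rose with both (log2 fold changes 3.45 and 2.48). Of the 6 genes of this list 5 were tested in each line. APOBEC1 was the only one called in Caco-2, with OD, where 4.43% of all genes rose. In HT-29 A1CF, its RNA binding partner, fell with both agents (named after its values were seen). A1CF was measured there from few counts, 14 to 27 per library in control, 6 to 7 with CoCl2 and 5 to 7 with OD. Over all genes in HT-29, 17.4% rose and 23.9% fell with CoCl2, and 9.5% and 7.57% with OD.

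Acylglycerol synthesis, the step before export, held genes that rose and genes that fell. All 18 genes were tested in both lines. In Caco-2, CoCl2 changed 3 higher and 3 lower (9.13% and 14.2% of all genes). There OD changed 2 higher and 1 lower (4.43% and 7.27%). The list medians were -0.37 with CoCl2 and -0.16 with OD. The acyltransferases of the last step, DGAT1 and DGAT2, fell with CoCl2, DGAT1 from 171 ± 8.19 CPM to 65.9 ± 4.28 CPM (log2 fold change -1.38, edgeR FDR 2.10e-13) and DGAT2 from 290 ± 6.66 CPM to 109 ± 2.42 CPM (-1.40, FDR 1.15e-14). With OD, DGAT1 was at 94.3 ± 6.27 CPM and DGAT2 at 150 ± 3.54 CPM (log2 fold changes -0.86 and -0.94, inside the limit on size). GPAM, the mitochondrial glycerol-3-phosphate acyltransferase, fell from 191 ± 11.1 CPM to 48.6 ± 4.07 CPM with CoCl2 and to 61.3 ± 5.76 CPM with OD. GPAT3, an acyltransferase of the endoplasmic reticulum for the same first step, rose in all 4 comparisons, in Caco-2 by a log2 fold change of 1.94 with CoCl2 and 1.26 with OD and in HT-29 by 3.25 and 1.39. In HT-29, 5 rose and 4 fell with CoCl2 (17.4% and 23.9% of all genes) and 3 rose with OD (9.5%). There LPIN1, a phosphatidate phosphatase, rose with both (3.83 and 2.24), and DGAT2 fell with CoCl2 (-2.54), its value with OD being 0.06 (FDR 0.553).

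**Figure D5:**
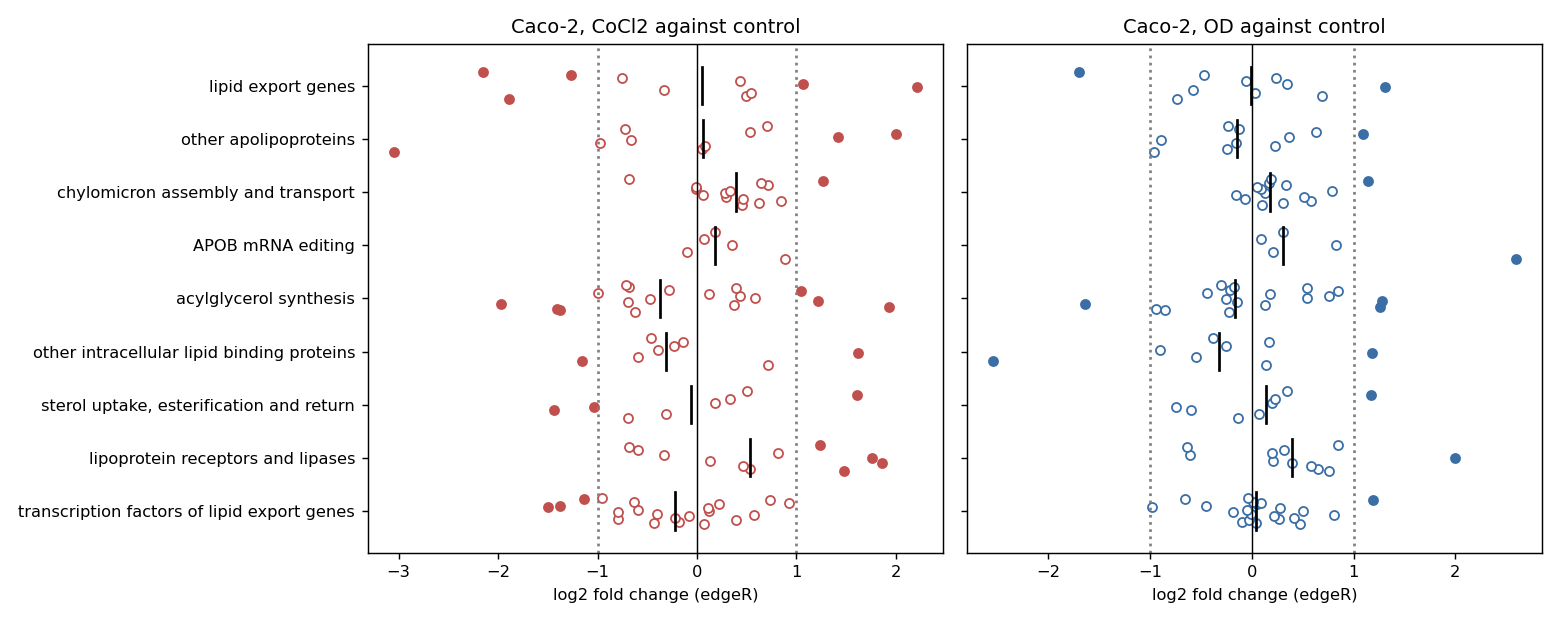
log2 fold change in Caco-2 of the 10 lipid export genes (top row) and of the tested genes of 8 related lists, with CoCl2 (left) and OD (right). Filled points are called, black bars are list medians and dotted lines mark the limits on size. The 10 genes spread from -2.15 to 2.22 with CoCl2 around a median of 0.05.

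Among 12 other intracellular lipid binding proteins, 8 were tested in Caco-2, and with each agent CRABP2 rose and FABP5 fell (both named after their values were seen). Over all genes in Caco-2, 9.13% rose and 14.2% fell with CoCl2, and 4.43% and 7.27% with OD. In HT-29, of 7 tested, 1 fell with CoCl2, FABP6 (named after its values were seen), and none was called with OD. Of 10 genes of sterol uptake, esterification and return, 8 were tested in Caco-2, where 1 rose and 2 fell with CoCl2 and 1 rose with OD. SOAT2, which esterifies cholesterol for chylomicrons, fell with CoCl2 (log2 fold change -1.43, edgeR FDR 3.59e-11) and was inside the limit on size with OD (-0.60). NPC1, a lysosomal cholesterol exporter, rose in all 4 comparisons, in Caco-2 from 51.7 ± 1.34 CPM to 158 ± 10.3 CPM with CoCl2 and 116 ± 5.31 CPM with OD. In HT-29, 4 of 7 rose with CoCl2 and 3 of 7 with OD, NPC1 and NPC2 among both, and none fell. Over all genes there, 17.4% rose and 23.9% fell with CoCl2, and 9.5% rose and 7.57% fell with OD.

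Receptors and lipases act on the particles after export. Of 14 genes counted, 11 were tested in Caco-2, and 4 rose with CoCl2 (9.13% of all genes) and 1 with OD (4.43%). VLDLR, a receptor for triglyceride-rich particles, rose with CoCl2 in both lines (log2 fold changes 1.48 and 2.24) and was not called with OD (0.76 and 0.07). SORL1, a sorting receptor, rose in Caco-2 with both agents (1.76 and 1.99). In HT-29, 5 of 11 rose and 1 fell with CoCl2 (17.4% and 23.9% of all genes) and 5 rose with OD (9.5%). LIPG, an endothelial lipase, and LRP8, a receptor for APOE, were among those that rose there with both agents. The gene that fell with CoCl2 was LCAT, which esterifies cholesterol on high density lipoprotein (named after its values were seen).

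Of 23 transcription factors known to act on lipid export genes, 21 were tested in each line. In Caco-2, 3 fell with CoCl2, MLXIPL, GATA4 and NR2F2, and 1 rose with OD, FOXO1 (MLXIPL, GATA4 and FOXO1 were named after their values were seen). Over all genes in Caco-2, 14.2% fell with CoCl2 and 4.43% rose with OD. HNF4A, a nuclear receptor that activates many apolipoprotein genes, was at 530, 568 and 520 CPM in control Caco-2, at 597, 559 and 545 CPM with CoCl2 (log2 fold change 0.07, edgeR FDR 0.387) and at 784, 717 and 745 CPM with OD (0.47, FDR 6.80e-06). CREB3L3, a membrane-bound factor of the liver and intestine, was at 21.4, 19.9 and 17.4 CPM in control, at 13.6, 10.4 and 10.2 CPM with CoCl2 (-0.80, edgeR FDR 9.83e-06) and at 21.3, 24.0 and 25.3 CPM with OD (0.26, FDR 0.0730). In HT-29, 3 rose and 6 fell with CoCl2 (17.4% and 23.9% of all genes) and 2 rose with OD (9.5%). There PPARD rose with CoCl2 (2.18), NR5A2 and CDX2 fell with CoCl2 (-1.94 and -1.46), and HNF4A was inside the limit on size with CoCl2 (-0.62) and OD (-0.66).

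The 10 genes differed in how they varied over the 9 Caco-2 libraries, which fall into 3 treatment groups, so that these correlations of log2 CPM are descriptions across groups as much as across libraries. APOB ran opposite to APOC3 (Pearson r = -0.97), APOA4 (-0.92) and APOA1 (-0.91), whereas the genes of the chromosome 11 cluster gave 0.95 (APOA4 and APOC3), 0.93 (APOA1 and APOC3) and 0.78 (APOA1 and APOA4). APOE, on chromosome 19, gave 0.89 with APOA1 and 0.79 with APOC3. APOB and MOGAT2 gave 0.86 and MTTP and APOA2 -0.90. Among 9430 other genes with a mean of at least 10 CPM, the pair most like APOB were CTSO (r = 0.997) and PRKCA (0.994), most like MTTP LIMCH1 (0.982) and SDCBP2 (0.981), and most like APOA4 CCDC120 (0.992) and CEP170B (0.989). For APOC3 they were PARP16 (0.995) and FAM219A (0.995), for APOA1 ZNF511 (0.991) and PES1 (0.989), for APOA2 C4BPA (0.991) and MT-CO2 (0.970), and for APOE CD2BP2 (0.981) and GSTP1 (0.978). For FABP1 they were PPP1R7 (0.996) and LTBP1 (0.992), for MOGAT2 AHSA2P (0.989) and LINC02035 (0.985), and for FABP2 DIS3L2 (0.900) and PDSS2 (0.890).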

How the data were processed

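Per the labels and the study's methods, single-end reads of a stranded mRNA kit were trimmed with cutadapt 2.10, aligned with STAR 2.7.5b to GRCh38.p13 (versions from the submitters' processing notes) and counted on GENCODE. The counting tool was not given in the sources used here, and the study's methods described the Caco-2 cultures only. The methods place DMSO in the CoCl2 medium too, which the labels do not. The authors deposited raw read counts by gene and, separately, log2 values. The deposited values were read as log2(RPKM + 1) with TMM scaling within each line. To check this, TMM-scaled CPM was divided by the RPKM so obtained, for genes with a mean of at least 100 counts. In each line 100% of these ratios lay within 5% of the gene's own median ratio. Gene lengths and genes with fewer counts were not checked. The miRNA tables were not used here.

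Counts of each line (9 libraries) were fitted with edgeR 4.0.16 in R 4.3.3 (TMM, filterByExpr with a minimum count of 10, quasi-likelihood test, two-sided), and line differences over all 18. Calls needed an FDR under 0.05 over all genes tested and an absolute log2 fold change over 1. Alternatives were library size only, RLE scaling, no low-count filter, no limit on the fold change, a replicate block, all libraries in the fit, DESeq2 1.42.0, limma-trend (limma 3.58.1) and each library left out. All 10 genes were named. Named from the lists were genes called against control with a mean of at least 100 counts in that line, at most 4 a list by size of change, and 7 genes whatever their values (APOBEC1, HNF4A, CREB3L3, APOA5, APOC1, SAR1B, DGAT1). Genes and lists were chosen with earlier results of these data known. From the list of receptors and lipases, 3 genes are not reported here and were left out of its counts.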

Additional observations from a re-analysis of the deposited data

Results flagged for a closer look

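Of the 3 genes tested in both lines, 5 responses differed between them by the interaction test over all 18 libraries (edgeR, FDR over all 17921 genes), each given as the log2 fold change in HT-29 minus that in Caco-2. For FABP1 the CoCl2 responses differed by -0.56 (FDR 0.00386) and the OD responses by -0.93 (FDR 2.22e-06). For APOE these were 1.32 (FDR 0.00796) and 2.03 (FDR 3.88e-05), from 3 to 43 counts per HT-29 library, and the first of these calls was lost without HT-29 CoCl2 replicate 1 (1.00, FDR 0.0729) or HT-29 control replicate 2 (0.94, FDR 0.0555). For APOA1 the OD responses differed by 1.35 (FDR 0.0353), from 1 to 17 counts per HT-29 library, and this call was lost without any one of 3 HT-29 libraries, control replicates 2 and 3 and OD replicate 1 (FDR 0.151 to 0.162).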

How the results depend on the processing

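Scaled by library size only, all genes together shifted, to a median log2 fold change of -0.35 (CoCl2) and -0.18 (OD) in Caco-2 and, for HT-29, of -0.66 and -0.13. By this scaling 2 of the 10 genes were called between the agents in Caco-2 (2126 of 16034 genes in all) and 1 in HT-29 (6062 of 15812). FABP1 with CoCl2 in Caco-2 was then called (-1.07), and APOA1 with OD in Caco-2 turned to -0.12. Without the limit on the fold change, the counts in Caco-2 were 10 with CoCl2, 7 with OD and 7 between the agents, beside 10370, 8084 and 7957 of all 16034 genes. In HT-29 the count between the agents was 1, beside 12286 of 15812. Without the low-count filter, 6 were called with CoCl2 in HT-29 (8289 of 34872 genes in all). Between the agents 2 were called in each line (2256 of 34873 genes in Caco-2 and 5824 of 34872 in HT-29). With all 18 libraries in the fit, 7 were called with CoCl2 in HT-29 and 2 between the agents there (7008 and 5084 of 17921 genes in all). With DESeq2 these were 4 and 2 (7238 and 4944 genes in all). With limma-trend, Caco-2 had 3 (CoCl2) and 1 (OD), where 1098 and 381 of 13153 genes were called. HT-29 had 1 and 0, where 2520 and 744 of 12431 genes were called. Of the 10 genes only FABP1 entered that HT-29 fit, since the deposited log2 values of the others there were 0 or absent. The cause of the other changes was not tested, except that more of the 10 genes are tested in HT-29 without the filter, with all 18 libraries and with DESeq2.

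With 1 library left out, the counts ran from 1 to 3 between the agents in Caco-2, from 2 to 5 with CoCl2 and from 1 to 4 with OD in HT-29, and from 1 to 5 and from 3 to 6 for the line differences with CoCl2 and OD, where 5 each were called over all libraries, 4 and 3 of them genes that passed the low-count filter through Caco-2 alone. The line difference with CoCl2 fell to 1 without HT-29 CoCl2 replicate 1. Over all genes, calls in these fits ran from 1739 to 1977 between the agents in Caco-2. In HT-29 they ran from 6594 to 6847 with CoCl2 and from 2741 to 2948 with OD. For the line differences they ran from 3706 to 3988 with CoCl2 and from 2562 to 2782 with OD.
In these fits APOA1 changed sign in 3 comparisons and APOE in 1, none of them called in the main analysis. APOA1 ran from -0.012 to 0.089 with OD in Caco-2, from -1.13 to 0.23 between the agents in HT-29 and from -0.39 to 1.44 for the line difference with CoCl2, and APOE ran from -0.43 to 0.036 between the agents in HT-29. APOB, APOA4 and MOGAT2 with CoCl2 in Caco-2 stayed called whichever library was left out.

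No effect shared by same-numbered libraries was seen over all genes. Their deviations from the group means correlated at -0.038 to 0.052 for Caco-2 and -0.023 to 0.035 for HT-29. This neither shows nor excludes that the cultures were paired. With a replicate block the counts were 5 (CoCl2) and 2 (OD) for Caco-2, 3 and 2 for HT-29, 1 and 0 between the agents and 5 for each line difference. Over all genes the block gave, in the same order, 3737 and 1891, 6520 and 2700, 1842 and 4726, and 3805 and 2673 for the line differences with CoCl2 and OD. The blocks lie within a line, so this fit does not compare the mean levels of the 2 control groups and is not read for them. Depth limits FABP2 and MOGAT2 in Caco-2 and all but FABP1 in HT-29, where few counts stand behind each value.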
